A study of Mus musculus with 151 samples.

Results

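The genes described here are 10 genes of vesicle fusion and recycling that neurons use at their synapses, measured in single hair cells of the mouse cochlea. They are 5 synaptotagmins (Syt1, Syt4, Syt7, Syt11 and Syt13), 3 neuronal SNAREs (Snap25, Vamp2 and Stx1a), the complexin Cplx1 and Snap91, an adaptor of clathrin coats that carries a SNAP symbol but is not a SNARE. They were chosen by name, and all 10 have a row among the 55291 genes of the count table. Another 114 genes of exocytosis, synaptic vesicles and endocytosis were read beside them.

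In neurons a vesicle fuses when VAMP2 on the vesicle zips up with syntaxin 1 and SNAP-25 on the plasma membrane, complexin clamps the bundle, and a synaptotagmin releases the clamp when it binds calcium. Inner hair cells (IHCs), the sensory cells that signal sound to the auditory nerve, release glutamate at ribbon synapses, where otoferlin (Otof) serves as the calcium sensor and the vesicular glutamate transporter is vGlut3 (Slc17a8). Outer hair cells (OHCs) amplify sound with the motor protein prestin (Slc26a5) and have few afferent synapses. How far hair cells use the neuronal fusion proteins is the question these genes address.

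The 3 kinds of cells were picked by hand as TdTomato+ cells, 1 cell per library, all from C57BL/6 mice. The 55 P14_WT IHCs (postnatal day 14) and the 50 P30_WT IHCs (postnatal day 30) came from vGlut3-P2A-iCreER/+; Ai9/+ mice, and the 46 P14_iOHCs from vGlut3-P2A-iCreER/+; Tbx2 flox/-; Ai9/+ mice. Every group therefore carries the Cre at the Slc17a8 locus and the Ai9 reporter, and the iOHCs differ from the IHCs of their age also by 1 constitutive null allele of Tbx2 and by having been picked for their small size. Mice of both genotypes received tamoxifen in the first postnatal days, which activates the Cre in vGlut3-expressing cells. The labels name no animal for any cell, so each group is 1 sample here. Values are given for the cells of a group, and no p-value is given. Intervals of levels and ratios cover counting error only. Intervals of shares of cells treat the cells as independent draws, and no interval covers variation between animals.

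Totals ranged from 4326416 to 25035444 counts per cell with a median of 15557333, and a gap split them: 51 cells had at most 10267217 (the lower set of totals) and 100 had at least 11814928 (the upper set). Both sets held cells of all 3 groups and were drawn after the totals were seen. Levels are counts per 1000000 counts (CPM), pooled over a group as summed counts over summed totals. Of the genes that check the labels, Otof was at 3532 CPM in P14_WT IHCs, 436 CPM in P14_iOHCs and 3858 CPM in P30_WT IHCs, and Slc26a5 was at 0.140, 1107 and 0.00458 CPM in the same order. Tbx2 was at 247, 66.5 and 193 CPM, and since counts are summed over the whole gene they do not show which cells lost it. Summed markers of supporting cells had a median of 19.3 CPM in P14_WT IHCs (0 to 1682), 964 CPM in P14_iOHCs (0 to 10405) and 42.1 CPM in P30_WT IHCs (0 to 916). Of 15 listed supporting cell markers, 4 had too few counts to be considered between P14_iOHCs and P14_WT IHCs. Of the other 11, 9 were more than 4-fold higher in the P14_iOHCs, beside 8.86% of the 13673 genes considered. Of 13 markers of neurons, Nefl and Nefm made up most of the signal in each group, and the other 11 summed to 8.86, 3.28 and 4.52 pooled CPM, with Prph and Gap43 at 0 in P14_WT IHCs.

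**Figure D1:**
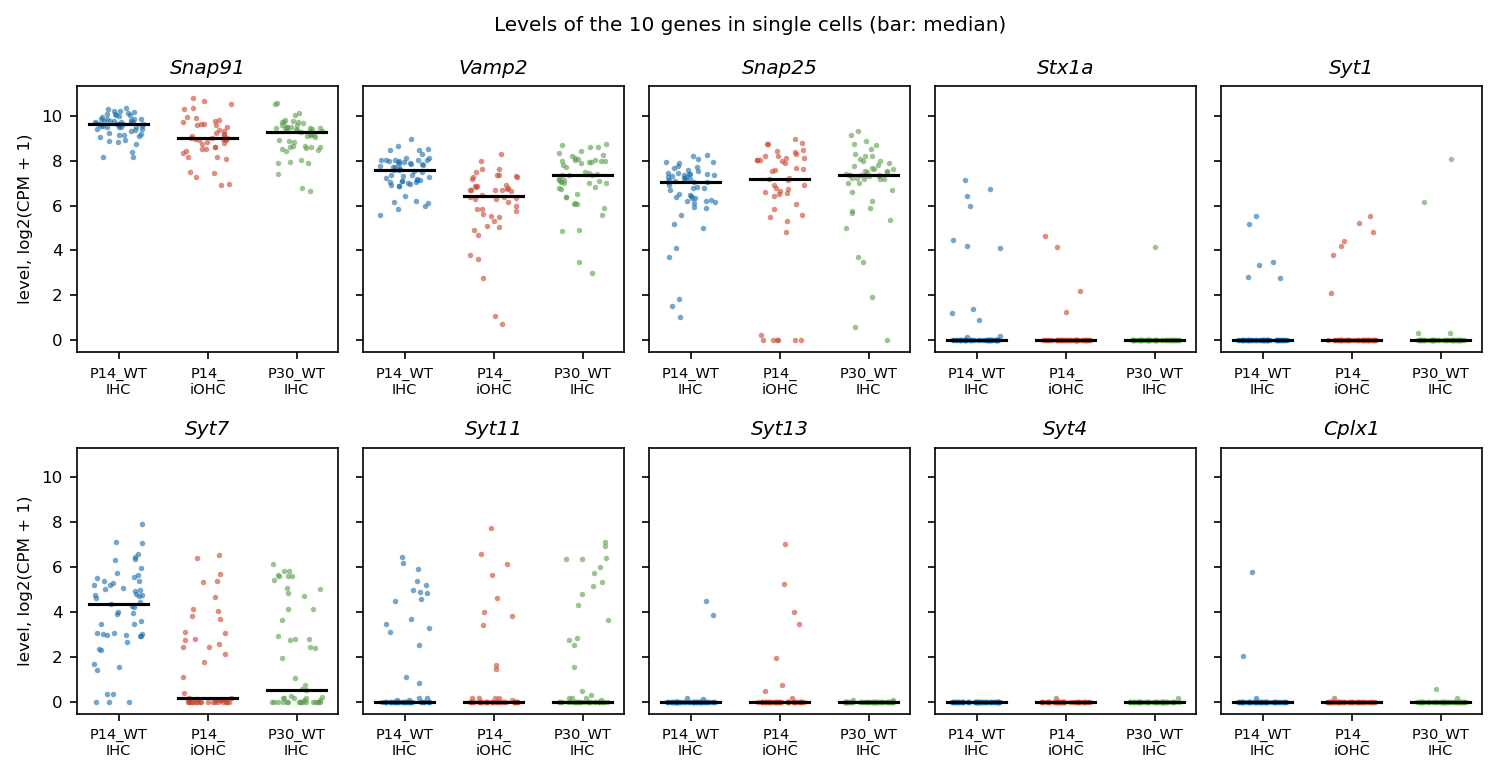
Each point is 1 cell, the vertical axis is log2(CPM + 1) and the bar is the median of the group (55 P14_WT IHCs, 46 P14_iOHCs, 50 P30_WT IHCs). Snap91, Vamp2 and Snap25 form a band in every group, Syt7 is spread from 0 to 244 CPM, and the other 6 genes are at 0 in most cells.

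The 10 genes split into 3 patterns of detection. Snap91 and Vamp2 had a count in all 151 cells, and Snap25 in all 55 P14_WT IHCs, 40 of 46 P14_iOHCs and 49 of 50 P30_WT IHCs. Syt7 was seen in most cells of each group and Syt11 in a minority. Stx1a, Syt1, Syt13, Cplx1 and Syt4 were seen in few cells, from 12 of 55 for Stx1a in P14_WT IHCs down to 0 of 55 for Syt4 in the same group. A cell held a median of 5 of the 10 genes among P14_WT IHCs and 4 in both other groups.

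The promoters of a gene found in every cell and of genes found in few can be set side by side. RefSeq gives a promoter window on GRCm38.p6, from 250 bases before the transcription start to 50 after it, for Syt1, Syt11, Snap91, Stx1a and Cplx1. Syt4, Syt7, Syt13, Snap25 and Vamp2 have no entry in that table. The windows below are those of Snap91 (chr9:86880659-86880958, minus strand), the most abundant of the genes, and of the sparse Stx1a (chr5:135023232-135023531, plus strand) and Cplx1 (chr5:108549978-108550277, minus strand). Each reads 5′ to 3′ along the gene, with GC boxes (GGGCGG or its complement) and the E-box CAGCTG in capitals.
Snap91: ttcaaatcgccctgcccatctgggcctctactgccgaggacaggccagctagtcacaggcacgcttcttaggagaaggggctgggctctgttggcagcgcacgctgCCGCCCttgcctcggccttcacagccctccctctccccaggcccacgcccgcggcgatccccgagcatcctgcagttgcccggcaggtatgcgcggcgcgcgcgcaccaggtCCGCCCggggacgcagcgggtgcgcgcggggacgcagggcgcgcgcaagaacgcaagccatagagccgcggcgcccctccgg
Stx1a: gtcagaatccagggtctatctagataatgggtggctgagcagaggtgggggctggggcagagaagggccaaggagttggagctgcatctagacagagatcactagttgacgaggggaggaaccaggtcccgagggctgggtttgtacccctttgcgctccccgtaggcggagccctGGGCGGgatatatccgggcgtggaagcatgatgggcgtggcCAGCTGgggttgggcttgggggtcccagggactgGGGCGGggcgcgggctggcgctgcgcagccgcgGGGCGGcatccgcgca
Cplx1: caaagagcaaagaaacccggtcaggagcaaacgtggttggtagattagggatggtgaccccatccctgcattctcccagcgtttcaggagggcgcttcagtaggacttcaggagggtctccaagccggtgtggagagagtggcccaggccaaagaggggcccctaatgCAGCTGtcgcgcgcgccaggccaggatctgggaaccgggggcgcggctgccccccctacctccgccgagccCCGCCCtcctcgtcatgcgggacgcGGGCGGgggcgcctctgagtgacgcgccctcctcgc

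These windows are rich in G and C, at 72% for Snap91, 66.3% for Stx1a and 67% for Cplx1, against a median of 52.7% over 32851 windows of the same length. The window of Syt11 (53%) and both windows of Syt1 (44% and 56.7%) were closer to that median. Snap91 held 35 CpG pairs, Stx1a 19 and Cplx1 24, where the median window held 7. On either strand, a GC box stood 2 times in Snap91, 3 times in Stx1a and 2 times in Cplx1, and 35.7% of all windows hold at least 1. It also stood 2 times in the window of Syt11 and 1 time in the Syt1 window with 56.7% G and C. The E-box CAGCTG, which is the same on both strands, stood 33 bases before the start of Stx1a and 82 bases before that of Cplx1. It was also 31 bases before the start in the Syt1 window with 44% G and C. It was not in the window of Snap91, and is in 16.3% of windows. The T-box core GGTGTGA (in 3.98% of windows) and TATAAA (in 13.6%) were in none of the windows of the 5 genes on either strand. A match is a description of these letters, not of a bound site.

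Snap91 encodes AP180, which gathers clathrin and recaptures VAMP2 during vesicle recycling, and lies on chromosome 9 from 86765923 to 86880654 (GRCm38, minus strand, 32 merged exons in GENCODE M21). Its level in P14_WT IHCs ran from 287 to 1321 CPM with a median of 795 CPM. In P14_iOHCs it ran from 120.2 to 1769.7 CPM with a median of 513 CPM, and in P30_WT IHCs from 99.6 to 1521 CPM with a median of 625 CPM. The groups overlapped over most of their range: 8 of 46 P14_iOHCs lay below every P14_WT IHC and 3 above every one. Pooled, Snap91 was at 772 CPM in P14_WT IHCs and at 589 CPM in each of the other groups, a log2 ratio of -0.39 to P14_WT IHCs in both cases. Without the 17 P14_iOHCs whose supporting cell markers exceeded those of every P14_WT IHC, the log2 ratio of the iOHCs was -0.09. Across the 46 P14_iOHCs, Snap91 and the summed supporting cell markers had a Spearman's rho of -0.47 and a Pearson's r of -0.45, given as a description since both are shares of 1 library's counts. The part of these markers in the lower Snap91 of the iOHCs was not tested further.

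Vamp2, the SNARE of the synaptic vesicle, lies on chromosome 11 from 69088490 to 69092384. It ranged from 46.9 to 504 CPM in P14_WT IHCs (median 191), from 0.626 to 315 CPM in P14_iOHCs (median 86.0) and from 7.02 to 422 CPM in P30_WT IHCs (median 163). Of the 46 P14_iOHCs, 42 were below the median P14_WT IHC and 12 were below the lowest one. Pooled over cells, P14_iOHCs stood at 96.2 CPM and P14_WT IHCs at 191 CPM, a log2 ratio of -0.99 (95% interval -1.002 to -0.976). It was -1.59 within the lower set of totals and -0.88 within the upper set, and -1.10 without the cells high in supporting cell markers, so the direction was the same in each. With age the pooled level stayed at 191 CPM, with a log2 ratio of -0.00 (-0.01 to 0.01) that was -0.58 within the lower set of totals and 0.15 within the upper set.

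Snap25, the partner of syntaxin on the plasma membrane, lies on chromosome 2 from 136713453 to 136782428. In P14_WT IHCs it ranged from 1.02 to 304 CPM with a median of 133 CPM. In P14_iOHCs the range was wider, from 0 to 494 CPM with a median of 143 CPM, with 8 cells above and 7 cells below every P14_WT IHC. In P30_WT IHCs it ran from 0 to 637 CPM with a median of 164 CPM. Pooled levels were 121, 172 and 186 CPM, log2 ratios to P14_WT IHCs of 0.51 (0.49 to 0.52) for the iOHCs and 0.62 (0.61 to 0.63) for P30. Within the lower set of totals these ratios were 0.04 and 0.28, so in those cells the iOHC level was close to that of P14_WT IHCs. Most P14_iOHCs therefore held Snap25 in the IHC range, while 6 had no count of it. Leaving every cell with 4000000 counts by thinning, 39 of 46 P14_iOHCs had a count of Snap25, against 40 before.

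Stx1a, the neuronal syntaxin, lies on chromosome 5 from 135023482 to 135051100 and was the sparsest of the 3 SNAREs. It had a count in 12 of 55 P14_WT IHCs (21.8%, exact 95% interval 11.8% to 35.01%), 4 of 46 P14_iOHCs (8.70%, 2.42% to 20.8%) and 1 of 50 P30_WT IHCs (2.00%, 0.0506% to 10.6%). Its median was 0 CPM in every group, and its highest cell was at 141 CPM in P14_WT IHCs, 24.1 CPM in P14_iOHCs and 16.8 CPM in P30_WT IHCs. The pooled level of 6.21 CPM in P14_WT IHCs compared with 1.10 CPM in P14_iOHCs, a log2 ratio of -2.50 (-2.61 to -2.39). The P30_WT IHCs stood at 0.221 CPM, a log2 ratio of -4.81 (-5.06 to -4.57), all of it from 1 cell with 145 counts.

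These Stx1a differences rest on few cells. The top 3 P14_WT IHCs gave 71.0% of the group's Stx1a counts, and without the P14_WT IHC numbered 53 the iOHC ratio was -1.95. The ratio was -1.44 within the upper set of totals, where it was no longer past 4-fold, and within the lower set no P14_iOHC had a count. Without the 7 P14_WT IHCs high in neuron markers it was -1.62. The ratio of P30 was -3.69 without these and 8 P30_WT IHCs high in neuron markers, and Stx1a then had too few cells to be considered with age. The cells left out were picked by the sum of all 13 neuron markers, which was mostly Nefl and Nefm. Leaving them out thus does not single out cells with RNA of neurons. The part of these markers in the result was not tested further. Of the 7 P14_WT IHCs with at least 10 CPM of Stx1a, 1 had any count of the neuron markers Slc17a7, Rbfox3, Prph or Gap43. Prph and Gap43 had no count in any P14_WT IHC, so this choice of markers could show little. In the 7 cells, the neuron markers other than Nefl and Nefm summed to 0 to 26.9 CPM (median 0). Over all P14_WT IHCs they summed to 0 to 113 CPM (median 0).

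**Figure D2:**
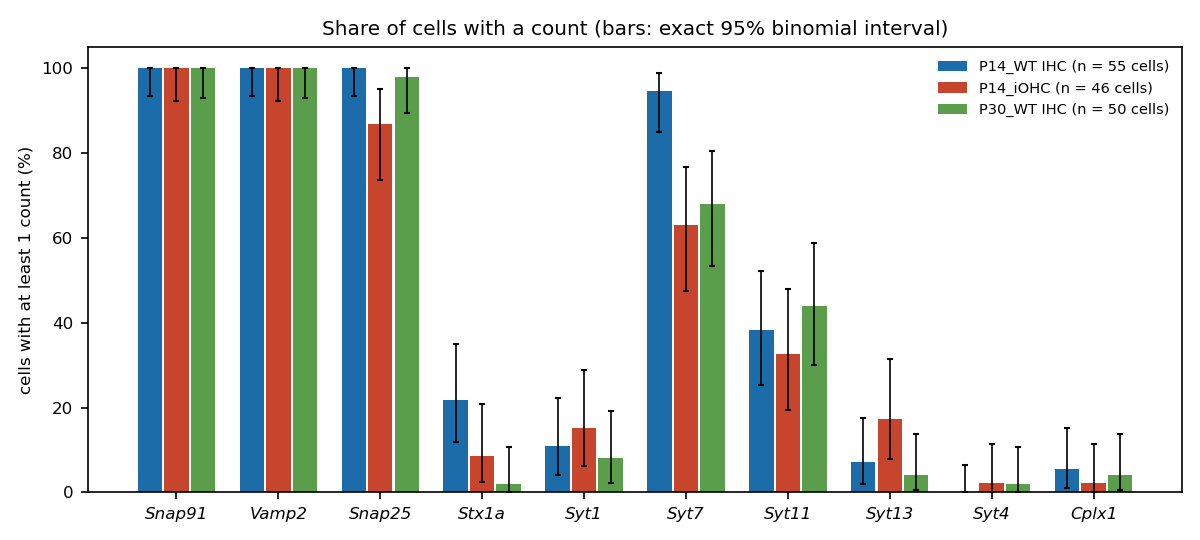
Bars give the percent of cells in each group with at least 1 count of a gene, and lines the exact 95% binomial interval. Snap91 and Vamp2 stand at 100% in all groups, Syt7 at 94.5% in P14_WT IHCs against 63.0% in P14_iOHCs and 68.0% in P30_WT IHCs, and Stx1a, Syt1, Syt13, Syt4 and Cplx1 at 21.8% or less.

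Of the 5 synaptotagmins listed, Syt7 was the one with a count in most IHCs of both ages. It is a slow calcium sensor with high affinity, known for asynchronous release and vesicle replenishment, and lies on chromosome 19 from 10389090 to 10453180. Its level ran from 0 to 244 CPM in P14_WT IHCs (median 19.3), from 0 to 90.7 CPM in P14_iOHCs (median 0.0998) and from 0 to 68.9 CPM in P30_WT IHCs (median 0.452). The cells of all groups overlapped, but 40 of 46 P14_iOHCs and 38 of 50 P30_WT IHCs lay below the median P14_WT IHC. Pooled levels were 28.9, 9.18 and 12.9 CPM, log2 ratios of -1.65 (-1.69 to -1.61) for the iOHCs and -1.16 (-1.20 to -1.13) for P30, neither past 4-fold, though without the P14_iOHC numbered 30 the iOHC ratio was -2.05. The sign was negative in all 12 alternatives of each comparison, with values of -2.52 and -1.43 in the lower and then the upper set for the iOHCs and of -1.77 and -1.03 for P30. Reads of Syt7 cannot be told apart from those of the lincRNA Gm26859 on the other strand over 384 shared exon bases, since the strand setting of the counting is not given.

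Syt11, a synaptotagmin that does not bind calcium, lies on chromosome 3 from 88744700 to 88775164. It had a count in 21 of 55 P14_WT IHCs, 15 of 46 P14_iOHCs and 22 of 50 P30_WT IHCs, with a median of 0 CPM in each and maxima of 84.9, 213 and 137 CPM. Pooled levels were 8.30, 11.9 and 15.2 CPM. The log2 ratio of the iOHCs, 0.52 (0.47 to 0.57), rests on 1 cell: without the P14_iOHC numbered 19 it was -0.25, and it was -7.49 within the lower set of totals and 0.70 within the upper set. The log2 ratio with age was 0.87 (0.82 to 0.91), 1.15 within the lower set and 0.82 within the upper set.

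Syt1, the fast calcium sensor of most brain synapses, lies on chromosome 10 from 108497650 to 109010982. It had a count in 6 of 55 P14_WT IHCs, 7 of 46 P14_iOHCs and 4 of 50 P30_WT IHCs. The highest cell was at 45.2 CPM in P14_WT IHCs, 45.9 CPM in P14_iOHCs and 269 CPM in P30_WT IHCs. Pooled levels of 1.59, 4.50 and 6.67 CPM gave log2 ratios of 1.501 (1.41 to 1.60) and 2.07 (1.98 to 2.16), but 88.3% of the P30 counts were those of the cell numbered 25, without which the P30 ratio was -0.99. For the iOHCs the ratio was 0.97 without the P14_iOHC numbered 35 and 2.06 without the P14_WT IHC numbered 6. With the mean of CPM over cells it was 0.80. It was -2.24 within the lower set of totals and 2.59 within the upper set. Syt1, Syt2 and Syt9 are the fast sensors of the family, and at least 1 of them had a count in 14 of 55 P14_WT IHCs, 9 of 46 P14_iOHCs and 15 of 50 P30_WT IHCs.

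Syt13, which does not bind calcium, and Syt4, a synaptotagmin of dense-core vesicles, had counts in few cells. Syt13 (chromosome 2 from 92915098 to 92956058) had a count in 4 of 55 P14_WT IHCs, 8 of 46 P14_iOHCs and 2 of 50 P30_WT IHCs. Its highest cell was at 21.5, 129.8 and 0.0618 CPM, and its pooled level was 0.514, 4.45 and 0.00305 CPM. The P30 level stands for 2 counts, a log2 ratio of -7.40 (-10.45 to -5.54) to P14_WT IHCs. Without the 17 iOHCs high in supporting cell markers, the log2 ratio of Syt13 between iOHCs and P14_WT IHCs was -3.60 in place of 3.11, so the direction of its difference turned when they were left out. It was 1.52 without the P14_iOHC numbered 24, which gave 67.7% of the iOHC counts, and -2.73 within the lower set of totals. The part of those markers in it was not tested further. Syt4 had 0 counts over all 55 P14_WT IHCs, for which the exact 95% interval reaches 0.00466 pooled CPM and 6.49% of cells, and 1 count in each of the other groups. Its exons share 566 bases with the antisense gene Gm26658.

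Cplx1, a complexin of the brain, lies on chromosome 5 from 108518554 to 108550024. It had a count in 3 of 55 P14_WT IHCs, 1 of 46 P14_iOHCs and 2 of 50 P30_WT IHCs. Pooled levels were 1.07, 0.00282 and 0.00763 CPM, but 97.9% of the P14_WT counts were those of the cell numbered 41 (53.5 CPM). The log2 ratio of the iOHCs was -8.57 (-11.62 to -6.71) with that cell and -3.04 without it. No group thus held Cplx1 in more than 3 cells.

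Over the 10 genes, 7 had enough counts to be considered in the comparison of P14_iOHCs with P14_WT IHCs (10 or more of the compared cells with 5 or more counts), and 1 of these, Stx1a, was more than 4-fold lower, beside 5.16% of the 13673 genes considered. None of the 7 was more than 4-fold higher, beside 8.86% of all genes. The median log2 ratio of the 7 was -0.39, and that of all genes considered was 0.09. In the comparison of P30_WT with P14_WT IHCs, 6 genes were considered and 1, again Stx1a, was more than 4-fold lower, beside 3.29% of 12946 genes. No member was higher past 4-fold, beside 2.71%, and the median log2 ratio was -0.20 where that of all genes was -0.01. Both comparisons use the same P14_WT IHCs. Stx1a had a count in 12 P14_WT IHCs, 4 P14_iOHCs and 1 P30_WT IHC, so it met the minimum of cells mainly through P14_WT IHCs. A gene that passes in this way can hardly be called other than lower. Its calls are therefore not support for a shift of the 10 genes. The genes left out for low counts were Syt4, Syt13 and Cplx1 in both comparisons and Syt1 in that of ages.

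**Figure D3:**
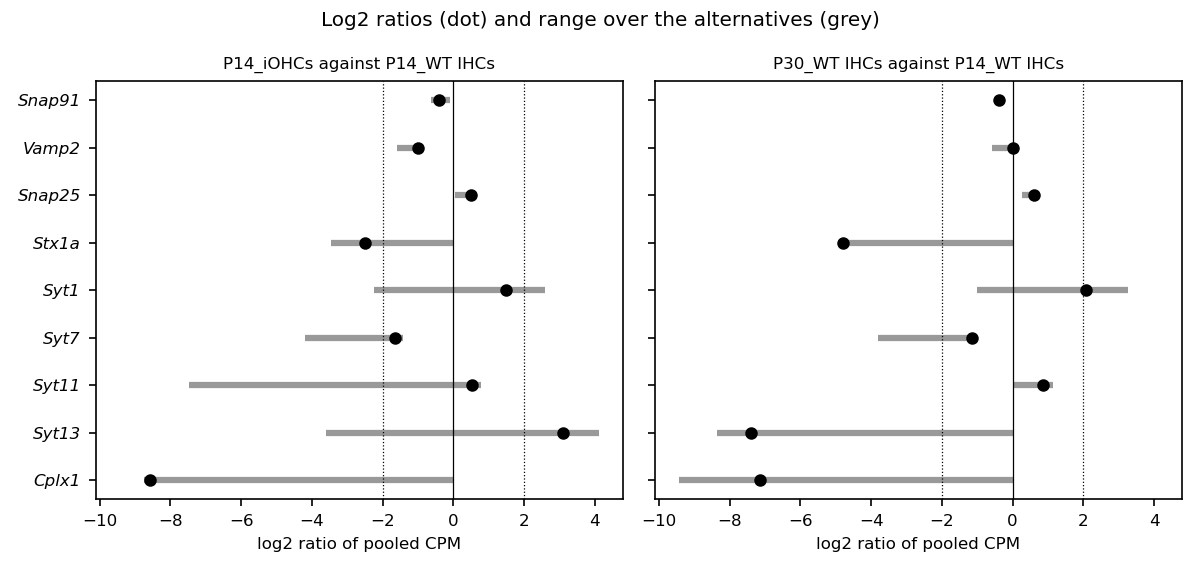
Dots give the log2 ratio of pooled CPM for 9 genes (Syt4 has too few counts), grey lines the range over the alternatives, and dotted lines a 4-fold difference; the median over cells uses log2(CPM + 1). Snap91, Snap25 and Syt7 stay on 1 side of 0 in both panels and Vamp2 in that of the iOHCs, while Stx1a, Syt1, Syt13, Syt11 and Cplx1 reach 0 or cross it in at least 1 comparison.

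Levels of different genes can be compared only per length, and for this the pooled counts were turned into TPM, the length-corrected share of transcripts per 1000000, with the exon lengths of GENCODE M21. In P14_WT IHCs Snap91 led with 208 TPM, then came Vamp2 (123), Snap25 (43.7), Syt7 (9.47), Stx1a (5.71), Syt11 (3.91), Cplx1 (1.20), Syt1 (0.467), Syt13 (0.335) and Syt4 (0). In P14_iOHCs the order of the leading genes was Snap91 (142 TPM), Snap25 (55.5) and Vamp2 (55.5), where the last of these do not differ, and in P30_WT IHCs it was Snap91 (151), Vamp2 (117) and Snap25 (64.1). The first 3 genes together held most of the summed TPM of the 10 in every group, and the order among the genes below Syt7 rests on few cells. Otof, for scale, was at 1096 TPM in P14_WT IHCs, 121 TPM in P14_iOHCs and 1144 TPM in P30_WT IHCs.

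Each of these genes has relatives in the same cells. Vamp2 held 36.1% of the TPM of 6 VAMP genes in P14_WT IHCs, 14.7% in P14_iOHCs and 35.6% in P30_WT IHCs, and Vamp8, a VAMP of late endosomes and regulated secretion, led in each group with 133, 232 and 157 TPM. Snap25 held 37.4%, 39.4% and 57.5% of its family of 4, where Snap47, a relative found on intracellular membranes, stood at 51.1, 60.4 and 29.5 TPM. Of the plasma membrane syntaxins Stx1a, Stx2, Stx3 and Stx4a, the last led with 65.5%, 65.9% and 70.4% of their summed TPM, while Stx1a held 8.56%, 1.45% and 0.317%. Syt14, which does not bind calcium, made up 73.2% of the TPM of 17 synaptotagmins in P14_WT IHCs, 44.2% in P14_iOHCs and 74.3% in P30_WT IHCs. Cplx2 led the complexins with 82.0%, 99.0% and 70.4% of their TPM, and was itself only at 11.9, 17.002 and 10.6 CPM. Snap91 held 94.4%, 91.7% and 90.7% of the summed TPM of itself and Picalm, its relative in most tissues.

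**Figure D4:**
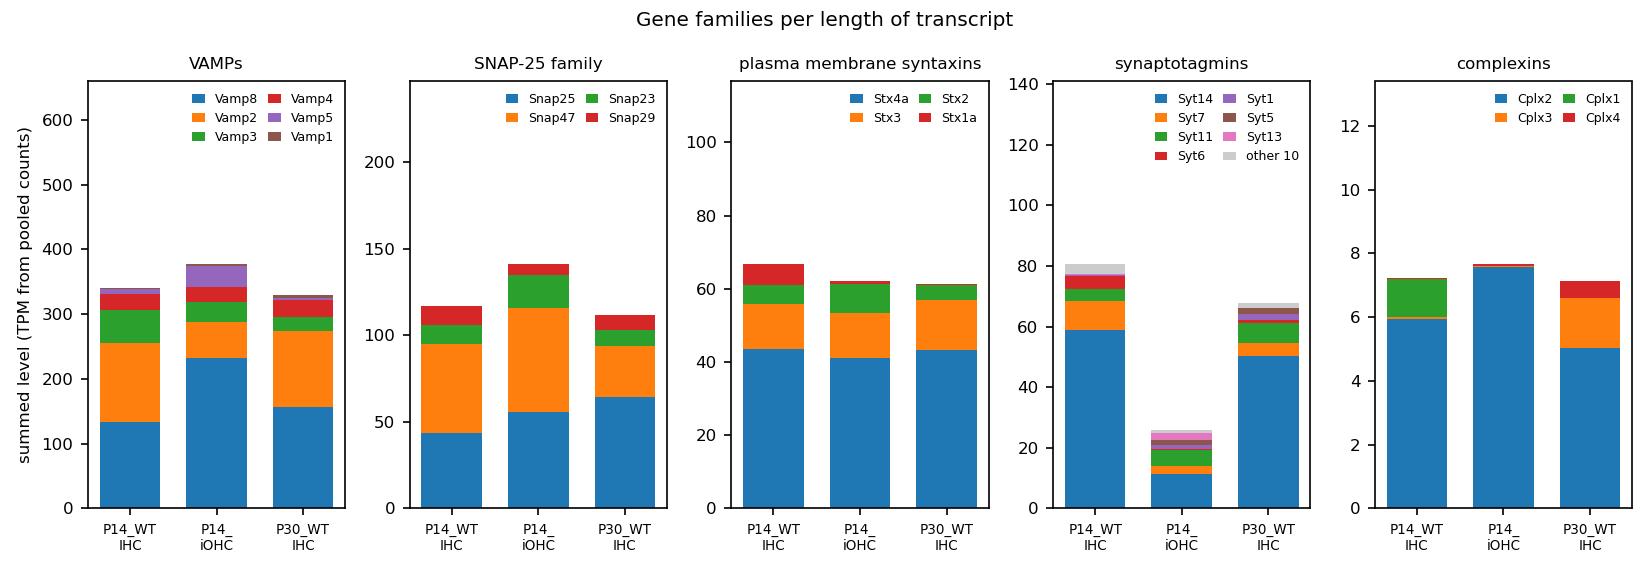
Stacked bars give the summed TPM of each gene family in the 3 groups, from pooled counts, with a scale of its own in each panel. Syt14 makes up most of the synaptotagmin bar in both IHC groups, Stx4a most of the syntaxin bar, and the synaptotagmin bar of P14_iOHCs is the lowest at 25.8 TPM against 80.5 and 67.8 TPM.

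Every cell with a count of Stx1a also had counts of Snap25 and Vamp2, the partners of its protein in the fusion complex. Vamp2 had a count in every cell of the 3 groups and Snap25 in all 55 P14_WT IHCs. The overlap was thus fixed in advance for P14_WT IHCs and likely in the other groups, and it cannot show coordinated expression. The cells with a count of Stx1a were 12 of 55 P14_WT IHCs, 4 of 46 P14_iOHCs and 1 of 50 P30_WT IHCs. With every cell thinned to 4000000 counts, all 3 genes were found together in 11, 3 and 1 cells. Snap25, Vamp2 and Snap91 together had counts in 55 of 55, 40 of 46 and 49 of 50 cells.

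Of the other 114 genes of exocytosis, vesicles and endocytosis, 82 were considered between P14_iOHCs and P14_WT IHCs. Of these, 6 were more than 4-fold higher (7.32%, beside 8.86% of all genes) and 7 more than 4-fold lower (8.54%, beside 5.16%). The median log2 ratio of the 82 was 0.19. Syt6 had a count in 4 of 46 P14_iOHCs and met the minimum of cells mainly through P14_WT IHCs. Unc13b had a count in 12 P14_iOHCs and met it mainly through them. Genes that pass in this way can hardly be called in the other direction, so these shares are not support for a shift of the vesicle genes. The lower genes were the synaptotagmins Syt14 (62.0 against 287 CPM, log2 ratio -2.21) and Syt6 (1.33 against 10.0 CPM, -2.91), the vesicle genes Syn3 (3.52 against 27.7 CPM, -2.98), Rab3c (6.64 against 34.2 CPM, -2.36) and Dnajc5b (78.0 against 695 CPM, -3.16), the dynamin Dnm1 (91.5 against 708 CPM, -2.95), and Otof itself (-3.02). Otof also served to check the labels, so its call is not a separate result. Dnajc5b encodes a relative of cysteine string protein, a chaperone of SNAP-25, and 36 of 46 P14_iOHCs lay below every P14_WT IHC for it. Dnm1 pinches off vesicles in nerve terminals, and 44 of 46 P14_iOHCs lay below every P14_WT IHC. The less abundant genes moved more with single cells: without the P14_iOHC numbered 19 Syn3 was at -4.65, without that numbered 26 Rab3c was at -3.02, and without that numbered 6 Syt6 was at -3.66. Within the lower set of totals Syn3 was at -10.75, Rab3c at -5.88 and Syt6 at -3.83, and Syt14, at -1.91, was not past 4-fold there.

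The higher genes were the endophilin Sh3gl3 (511 against 22.7 CPM, log2 ratio 4.49), the priming factor Unc13b (10.6 against 0.413 CPM, 4.68), the dynamin Dnm3 (253 against 44.03 CPM, 2.52), the scaffold Itsn1 (21.8 against 4.06 CPM, 2.43), Rab3b (18.04 against 3.53 CPM, 2.35) and Vamp5 (41.3 against 8.54 CPM, 2.28). The P14_WT level of Unc13b rests on 1 cell, numbered 13, within the lower set of totals no P14_iOHC had a count of it, and within the upper set no P14_WT IHC did. Rab3b was at 1.97, no longer past 4-fold, without the P14_iOHC numbered 43. Of the dynamins, Dnm1 was lower and Dnm3 higher, and Sh3gl3 was higher in 39 of 46 iOHCs than in any P14_WT IHC. Their other relatives, named after their values were seen, were not past 4-fold: Dnm2 was at a log2 ratio of 0.34, Sh3gl1 at 0.54 and Sh3gl2 at -0.96. Without the 17 iOHCs high in supporting cell markers, Rab3b was at a log2 ratio of 0.40 and Unc13b had too few counts to be considered, while Sh3gl3 (4.68), Dnm3 (2.83), Vamp5 (2.47) and Itsn1 (2.21) were still past 4-fold. Among the lower genes, Syt14 was then at -1.80 and the other 6 stayed below -2.

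With age, 80 of the 114 genes were considered, 0 were more than 4-fold higher and 1 was more than 4-fold lower (1.25%, beside 3.29% of all genes). This was Doc2g, a relative of the synaptotagmins named after its value was seen, at 2.90 CPM in P14_WT IHCs and 0.00610 CPM in P30_WT IHCs. It met the minimum of 10 cells with none to spare, so it was no longer considered once 1 of these was left out, and the count of lower genes was 0 without the cells high in neuron markers. It passed through P14_WT IHCs, the group where it was higher, so it could hardly be called other than lower. The median log2 ratio of the 80 was 0.08. Otof was at a log2 ratio of 0.13, Syt14 of -0.16, Dnm1 of -0.47 and Dnajc5b of 0.19 between P30_WT and P14_WT IHCs. Syt6, which was also lower in the iOHCs, was at -1.96.

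**Figure D5:**
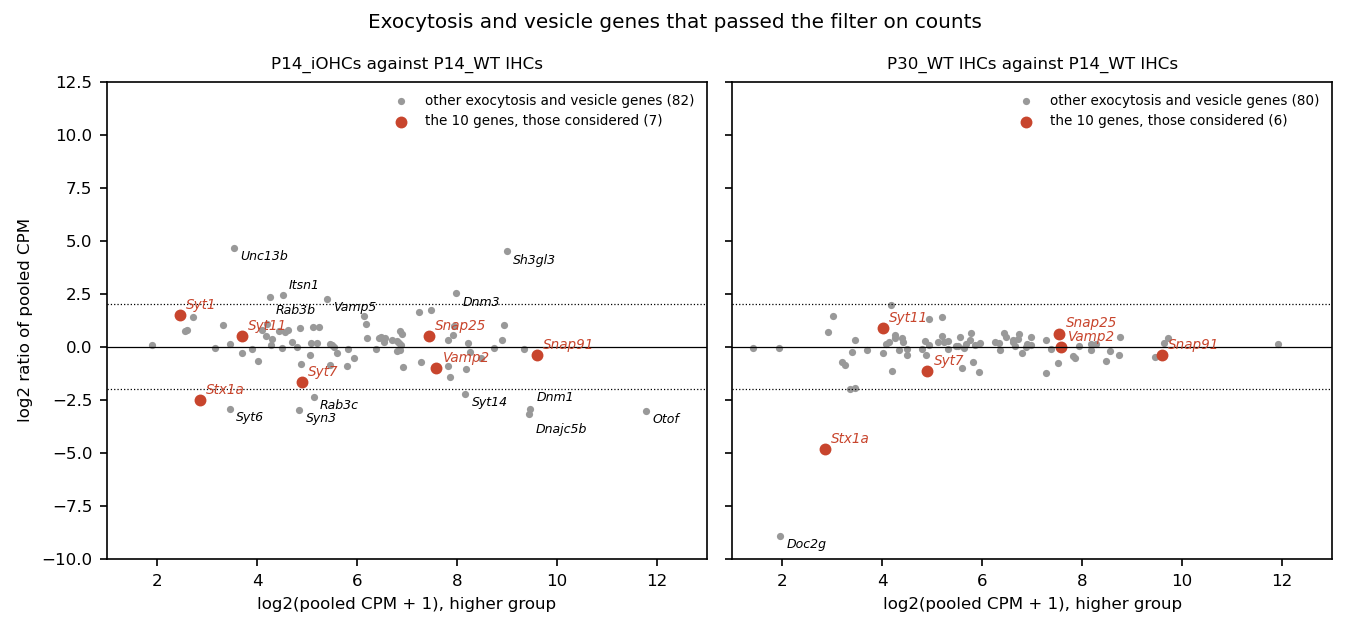
Each point is a gene with enough counts to be considered: the horizontal axis is log2(pooled CPM + 1) in the higher group, the vertical axis the log2 ratio, dotted lines mark 4-fold. In the iOHC panel 6 grey points lie above and 7 below the dotted lines, and in the panel of ages only Stx1a and Doc2g lie outside them.

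The genes present in nearly every cell did not move together from cell to cell. Within each group, Spearman's rho between Snap25, Vamp2 and Snap91 lay between -0.30 and 0.16 over 55, 46 or 50 cells. Vamp2 and Otof had a rho of 0.37 and a Pearson's r of 0.42 across the 55 P14_WT IHCs, with rho of 0.25 and 0.33 in the lower and then the upper set, a rho of 0.11 and an r of 0.38 across the 46 P14_iOHCs, and a rho of 0.20 and an r of 0.23 across the 50 P30_WT IHCs. These are descriptions over cells whose 2 values share a library and its total. Among the 3686 genes that had counts in 80% or more of each group's cells, none had a mean rho of 0.6 or more with Snap25, Snap91 or Vamp2 over the 3 groups, and the highest was 0.36.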

How the data were processed

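Single TdTomato+ cells were amplified with the Smart-Seq HT kit and sequenced without molecular identifiers, so reads are not independent molecules. The authors deposited whole-number counts per gene and cell, and the submitters' processing notes name FastQC 0.11.9, Trimmomatic 0.39, HISAT2 2.1.0, HTSeq 0.10.0 and StringTie 1.3.5 with the mm10 build. The annotation release and the strand setting of the counting are not given in the sources used here. Columns were matched to cells by name, and no 2 libraries held identical counts.

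Counts were summed over the cells of a group and divided by the summed totals (CPM). Since the labels name no animal, a group is 1 sample, no p-value was computed, and the DESeq2 test over cells that the study used was not repeated. A gene was considered where 10 or more of the compared cells had 5 or more counts, and was called past an absolute log2 ratio of 2, the fold in the study's methods. Intervals (95%) are exact conditional Poisson for ratios and Clopper-Pearson for shares. A count of 3 in 1 cell corresponds to 0.120 to 0.693 CPM. TPM used merged exon lengths of GENCODE M21 for 53292 genes. The alternatives were TMM scaling (edgeR 4.0.16), DESeq2 1.42.0 size factors, the mean of CPM, the median cell on log2(CPM + 1), no filter, a log2 ratio of 1, sets of totals, thinning to 4000000 counts, leaving out cells high in supporting cell markers (above every P14_WT IHC) or neuron markers (above the 90th percentile of all cells), and leaving out each cell. Scripts ran in Python 3.11.15 and R 4.3.3. The pooled ratio and its interval were tested on simulated Poisson counts without variation between cells, so this test does not cover the spread seen here.

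The 10 genes are always named. Other genes of the lists are named past 4-fold with at least 10 CPM in the higher group, and genes of like pattern at a mean rho of at least 0.6. Relatives of the 10 genes and of genes so named are given outside this rule, to compare family members. The genes and lists were chosen with earlier results of these data known. Vamp7 and some other genes of these families were not analysed here.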

Additional observations from a re-analysis of the deposited data

How the results depend on the processing

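No paired analysis was possible because no result comes from a test and the cell numbers are only names. For P14_iOHCs against P14_WT IHCs, the count of the 10 genes more than 4-fold higher was 1 in place of 0 with no filter, past a log2 ratio of 1 and within the upper set of totals, and 0 to 1 when each cell was left out. The count lower was 2 in place of 1 with no filter and past a log2 ratio of 1, 0 within the upper set and without cells high in neuron markers, and 0 to 2 when each cell was left out. For the other vesicle genes, the 6 higher became 16 with no filter and 14 past a log2 ratio of 1, and the 7 lower became 11 by the median cell and 16 with no filter. For P30_WT against P14_WT IHCs, the 10 genes gave 1 higher in place of 0 with no filter, and in place of 1 lower 3 with no filter, 2 past a log2 ratio of 1 and 0 within the lower set, within the upper set and without cells high in neuron markers, where Stx1a had too few cells. The other vesicle genes gave, in place of 0 higher, 1 by the mean of CPM, 9 with no filter, 4 past a log2 ratio of 1, 2 within the upper set and 0 to 1 when each cell was left out. In place of 1 lower they gave 9 by the median cell, 9 with no filter, 6 past a log2 ratio of 1, 3 within the lower set, 2 above the widest gap in totals, 0 without cells high in neuron markers and 0 to 3 when each cell was left out. Apart from the settings that change the rule itself or the cells used, the cause was not tested. TMM scaling lowered every log2 ratio of the iOHCs by a like amount (shift -0.11) and brought the median of all genes from 0.09 to -0.02. The planned set below the widest gap in totals held only 2 cells and was not run, and the lower and upper sets were chosen after seeing the data. Thinning to 4000000 counts lowered the P14_iOHCs with a count of Syt7 from 29 to 23 and of Syt11 from 15 to 11. Syt4, Syt13, Cplx1, Syt1 and Stx1a had counts in 0 to 12 cells a group.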
